A study of Homo sapiens with 24 samples.

Results

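The double knockdown labelled RPRD1B_RPRD2_KD, in which HEK293T cells received siRNAs against RPRD1B and RPRD2 together, was compared with the control siRNA group. Its members were taken by label, as the samples titled RPRD1B_RPRD2_KD and CTRL, and samples were paired by the replicate number in the titles. This gave 2 double knockdown samples and 2 controls, 4 of the 24 samples of the series and 4 of its 16 HEK293T samples. The single knockdowns RPRD1B_KD and RPRD2_KD, of 2 samples each, were added, so that 8 libraries formed a 2 by 2 design of both siRNAs. HEK293T is a human embryonic kidney line, and in all 8 samples cells were transfected for 48 h, the controls with a control siRNA. RNA was extracted with TRIzol, and polyadenylated RNA was read from its 3′ ends with QuantSeq REV libraries. The stated purpose of the series was to examine how RPRD proteins affect the accumulation of RNA at steady state. An siRNA lowers a messenger RNA and does not delete the gene, so some message remained in every silenced group. The labels do not say whether the replicates were separate cultures. The p-values measure the spread left between these samples once differences shared by samples of the same replicate number are removed. This spread may be technical.

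RPRD1A, RPRD1B and RPRD2 are related proteins that bind the C-terminal domain (CTD) of the largest RNA polymerase II subunit, a long tail of repeats that is phosphorylated as the enzyme moves from initiation into elongation. They hold the tail through a CTD-interaction domain and have been described as scaffolds that bring the CTD phosphatase RPAP2 to it, so that phosphates placed early in transcription are removed. RPRD1B, also called CREPT, is further known for raising cyclin D1 and Wnt target transcription in tumour cells.

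The 8 libraries held 1833696 to 2889895 counts in genes, with 15975 to 17093 genes detected, and 3 counts, taken as the floor of detection, stood for 1.04 to 1.64 CPM, the count scaled to a common library size. A floor of this kind covers counting error only. Markers of the HEK293 lineage (such as NEFM, VIM and KRT18) summed to 239 to 310 CPM across the 8 libraries. Most of this came from VIM and LIN28B, at 229 and 102 of 415 counts in control replicate 1. Of the 9 listed, PEG10, PAX2, KRT8 and NEFL were low, with at most 4, 7, 13 and 18 counts in any library. The 15 markers of blood, fibroblast, endothelium, hepatocyte, squamous epithelium and kidney tubule summed to 7.5 to 18.2 CPM. Most of this came from the fibroblast marker COL1A1, which had 13 to 42 counts per library, 42 of 53 in RPRD1B_KD replicate 2. COL3A1 had at most 10 counts, and CD14, PECAM1, ALB and APOA1 at most 1. PTPRC, CD3E, LYZ, DCN, CDH5, KRT5, KRT14, SLC34A1 and UMOD were at 0. The 13 mitochondrial messenger RNAs had 0 counts in all 8 libraries, so they are taken as not counted and are not described. The share of reads outside annotated features was 34.3% to 36.7% in the libraries numbered 1 and 27.4% to 29.4% in those numbered 2, in each of the 4 groups. No spike-in was analysed, so a change of all messages together is removed by the scaling. In bulk RNA, fewer cells with a message and less message per cell cannot be told apart.

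Both targeted messages were lower in the double knockdown than in the controls. RPRD1B (chr20:38033546-38127780, GRCh38, GENCODE 29) was at 28.8 and 28.2 CPM in control replicates 1 and 2, 10.5 and 6.20 in RPRD1B_KD, 37.6 and 25.1 in RPRD2_KD, and 11.5 and 3.98 in the double knockdown. The double knockdown samples did not overlap the controls, and their mean was 27.2% of the control mean. The fall was -1.86 ± 0.29 on the log2 scale (SE), with an adjusted p of 1.04e-04 from edgeR's quasi-likelihood test with the replicate number as a block. It rested on 50 and 62 counts in the controls and 32 and 8 in the double knockdown. The adjusted p was 0.0853 without control replicate 2 and 1 without the block.

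RPRD2 (chr1:150363091-150476566) was at 99.5 and 102 CPM in the controls, 104 and 98.4 in RPRD1B_KD, 34.5 and 31.2 in RPRD2_KD, and 46.8 and 39.8 in the double knockdown. Its level was thus 43.0% of control in the double knockdown, a fall of -1.21 ± 0.15 (adjusted p = 2.38e-07, edgeR). Both double knockdown samples lay above both RPRD2_KD samples, but the difference of 0.41 ± 0.17 did not pass the test (adjusted p = 0.396, edgeR). For RPRD1B the double knockdown differed from RPRD1B_KD by -0.06 ± 0.35 (adjusted p = 0.994, edgeR). Without the block the adjusted p of the fall in RPRD2 was 0.065.

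RPRD1A, the family member no siRNA was aimed at, was also lower in the double knockdown. It stood at 158 and 165 CPM in the controls, 86.3 and 102 in RPRD1B_KD, 74.7 and 99.9 in RPRD2_KD, and 69.8 and 85.1 in the double knockdown (chr18:35984387-36067576). The 6 silenced libraries all lay below both controls, and the double knockdown fell by 1.06 ± 0.13 on the log2 scale (adjusted p = 9.57e-08, edgeR; 0.254 without the block). Against the same controls it fell by 0.78 ± 0.12 in RPRD1B_KD (adjusted p = 1.74e-04) and by 0.89 ± 0.12 in RPRD2_KD (adjusted p = 6.8e-06, edgeR). The interaction, by which the double knockdown departed from the sum of the single changes, was 0.60 ± 0.18 and did not pass (adjusted p = 0.0906, edgeR).

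**Figure D1:**
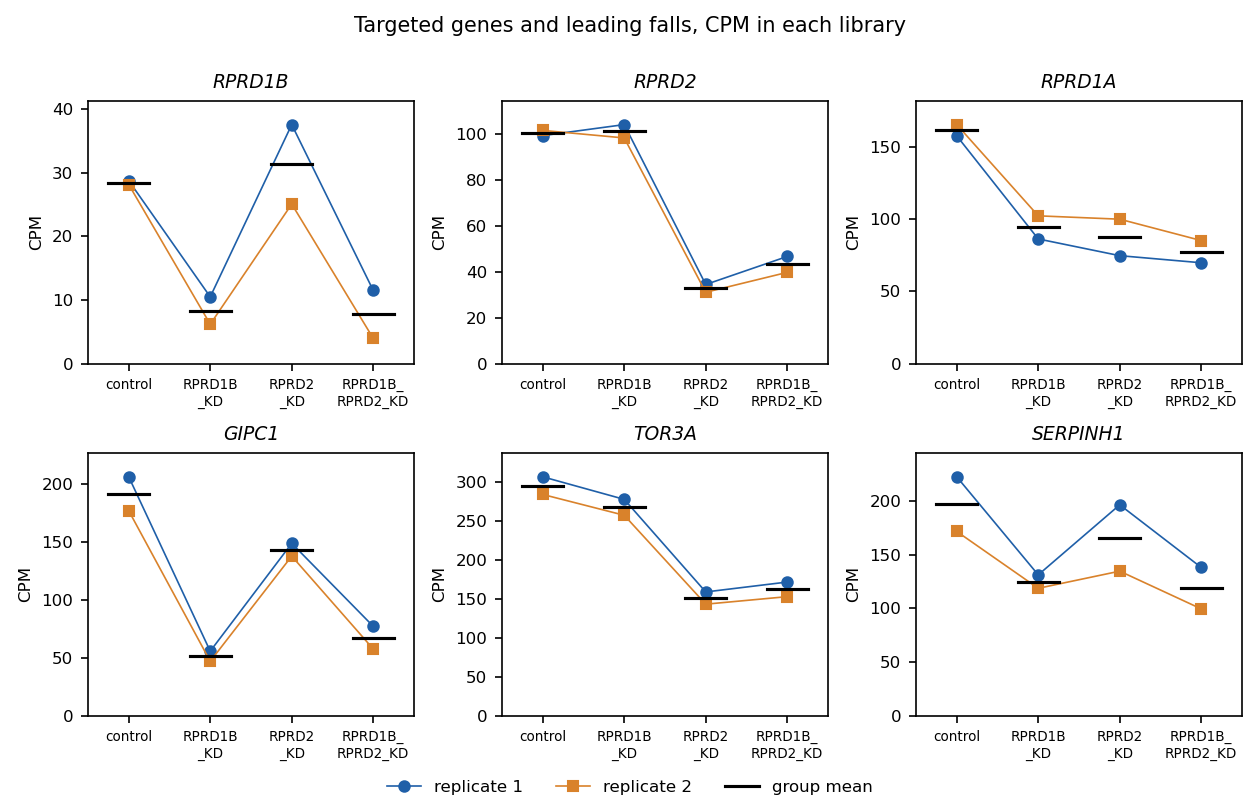
CPM of 6 genes in each of the 8 libraries (y axis, from 0) by group (x axis); circles and squares are replicates 1 and 2, lines join libraries of the same number, and black bars are group means. RPRD1B is low only where its siRNA was used and RPRD2 only where its own was used, RPRD1A is low in all 6 silenced libraries, the group means of GIPC1 and SERPINH1 are lowest with RPRD1B siRNA, and those of TOR3A with RPRD2 siRNA.

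Few other genes passed the test. Of 11475 genes tested, 26 were called in the double knockdown against control at an adjusted p under 0.05, or 0.227%; 5 were higher and 21 lower, the lower ones 0.183% of genes. At an unadjusted p under 0.05 there were 1026, where 573.75 would be expected if no gene changed. The same fit called 72 genes (0.627%) in RPRD1B_KD and 164 genes (1.43%) in RPRD2_KD against the same 2 controls, which all 3 comparisons share; without the block each of these had 1 call. The median log2 fold change over all genes was -0.01. Without the replicate block 1 gene was called, GIPC1, and 319 had an unadjusted p under 0.05, fewer than the 573.75 expected. DESeq2 called 10 with the block, all lower and all among the 26. Leaving out 1 library gave from 8 calls (without control replicate 2) to 35 (without RPRD1B_RPRD2_KD replicate 2), with 5 and 13 of the 26 among them; 11 were called without RPRD1B_KD replicate 1 and 10 without RPRD1B_KD replicate 2. A fit of only the 4 double knockdown and control libraries called 15 genes with the block and 1 without it. All 26 kept their direction in every one of these fits that tested them.

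GIPC1, a PDZ adaptor that binds the cytoplasmic tails of membrane receptors and links them to trafficking motors, had the strongest test. It was at 206 and 177 CPM in the controls and 77.3 and 57.8 in the double knockdown, 35.2% of control (chr19:14477760-14496149). RPRD1B_KD gave 55.9 and 47.2 CPM and RPRD2_KD 149 and 138. The double knockdown thus lay below the controls and RPRD2_KD and above RPRD1B_KD, without overlap. Its fall against control was -1.50 ± 0.12 (adjusted p = 1.04e-12, edgeR; 0.0291 without the block). Against RPRD2_KD it was lower by -1.08 ± 0.13 (adjusted p = 1.41e-07, edgeR; 0.76 without the block), and against RPRD1B_KD the difference of 0.40 ± 0.14 did not pass (adjusted p = 0.555, edgeR).

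TOR3A, a torsin-family ATPase of the endoplasmic reticulum, followed the other siRNA. It had 306 and 284 CPM in the controls, 278 and 257 in RPRD1B_KD, 159 and 143 in RPRD2_KD, and 172 and 153 in the double knockdown (chr1:179081377-179098023). The 4 libraries with RPRD2 siRNA were all below the 4 without it. The double knockdown was lower by -0.86 ± 0.10 against control (adjusted p = 8.81e-08, edgeR; 0.254 without the block) and by -0.72 ± 0.10 against RPRD1B_KD (adjusted p = 9.63e-06, edgeR; 1 without the block), and differed from RPRD2_KD by 0.10 ± 0.11 (adjusted p = 0.811, edgeR).

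SERPINH1, the collagen chaperone of the endoplasmic reticulum also called HSP47, had 222 and 172 CPM in the controls and 138 and 99.6 in the double knockdown, which did not overlap. RPRD1B_KD gave 131 and 119 CPM and RPRD2_KD 196 and 135. The fall against control was -0.73 ± 0.12 (adjusted p = 1.04e-04, edgeR; 1 without the block). GIPC1, RPRD1A, RPRD2, TOR3A and SERPINH1 passed in all 8 fits that left out 1 library, and RPRD1B in 7. GIPC1, RPRD1A, RPRD1B, RPRD2 and TOR3A were the 5 calls left when all 16 HEK293T libraries shared 1 estimate of the spread. With RPRD1A_RPRD2_KD replicate 2 left out of those 16, the number of calls stayed within 1.5 times the 26 reported. The fall to 5 thus depended on that library, which is outside this comparison, and the reason was not tested.

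Other lower genes of the rule were GNG4, a G protein gamma subunit, PGAM1, a glycolytic enzyme, CD70, the ligand of the lymphocyte receptor CD27, FUOM, a fucose mutarotase, and the antisense RNAs LIPE-AS1 and ZNF503-AS2. GNG4 went from 32.2 and 57.2 CPM in the controls to 16.6 and 28.9, a change of -0.98 ± 0.21 (adjusted p = 0.0134, edgeR). PGAM1 went from 116 and 117 CPM to 68.0 and 87.1, a change of -0.59 ± 0.13 (adjusted p = 0.0229, edgeR). CD70 went from 79.3 and 70.4 CPM to 54.0 and 38.3, a change of -0.70 ± 0.16 (adjusted p = 0.0311, edgeR). In each of these 3 genes both double knockdown samples were below both controls. Against the same controls, RPRD1B_KD and RPRD2_KD gave -0.87 and -0.65 for GNG4, -0.37 and -0.36 for PGAM1 and -0.595 and -0.97 for CD70. The log2 changes of FUOM, LIPE-AS1 and ZNF503-AS2 were -0.76, -1.14 and -0.83. Whether the counting used strand is not given in the sources used here, so reads of the antisense RNAs cannot be told apart from those of their partners. These 6 genes passed in 2 to 4 of the 8 fits that left out 1 library, the largest adjusted p coming without control replicate 1 (LIPE-AS1, 0.356; FUOM, 0.434; PGAM1, 0.462) or without control replicate 2 (GNG4, 0.384; CD70, 0.384; ZNF503-AS2, 0.397).

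The other 9 lower calls were abundant messages with small changes; all but HSPA1B are named here after their values were seen, to complete the set. They were the linker histone H1FX (-0.50), the splicing regulator HNRNPH2 (-0.47), the inducible chaperone HSPA1B (-0.46), the early endosome GTPase RAB5C (-0.45), the stress-induced gene IER5 (-0.43), the arginine methyltransferase PRMT1 (-0.41), the Hsp70 and Hsp90 co-chaperone STIP1 (-0.39), the mitochondrial ribosomal protein MRPL12 (-0.39) and the microtubule nucleation protein MZT2B (-0.38). PRMT1, for example, had 2197 and 1883 CPM in the controls and 1627 and 1437 in the double knockdown, 75.1% of control. H1FX alone among the 26 calls had overlapping samples, with 919 and 1696 CPM in the controls and 720 and 1081 in the double knockdown, and was lower in both replicate pairs. RPRD1B_KD and RPRD2_KD, against the same controls, gave -0.53 and -0.44 for H1FX, -0.38 and -0.39 for HSPA1B and -0.35 and -0.34 for PRMT1. They gave -0.36 and -0.30 for STIP1, -0.32 and -0.14 for HNRNPH2, -0.245 and -0.13 for RAB5C and -0.14 and -0.35 for MZT2B. Values were smaller for IER5 (-0.05 and -0.11) and MRPL12 (-0.07 and 0.035). Leaving out control replicate 2 gave the largest adjusted p of H1FX (0.257), HNRNPH2 (0.603), HSPA1B (0.564), RAB5C (0.228), PRMT1 (0.162), STIP1 (0.223), MRPL12 (0.408) and MZT2B (0.26), and leaving out control replicate 1 that of IER5 (0.356).

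HSPA1B, STIP1, IER5 and SERPINH1 are known as heat shock or chaperone genes that the heat shock factor HSF1 can switch on. The windows at their RefSeq starts are shown as those of the lower calls with that background. These genes were picked by hand after their values were seen, so their number among the lower calls is no evidence for such a theme. The windows run from 250 bases before to 50 after the RefSeq start (GRCh38.p14, plus strand in all 4), and capitals mark each match to GAANNTTC or TTCNNGAA, the core of the heat shock element, each of which reads the same on both strands. In the order named they lie at chr6:31827488-31827787, chr11:64185921-64186220, chr1:181088450-181088749 and chr11:75562223-75562522.
HSPA1B: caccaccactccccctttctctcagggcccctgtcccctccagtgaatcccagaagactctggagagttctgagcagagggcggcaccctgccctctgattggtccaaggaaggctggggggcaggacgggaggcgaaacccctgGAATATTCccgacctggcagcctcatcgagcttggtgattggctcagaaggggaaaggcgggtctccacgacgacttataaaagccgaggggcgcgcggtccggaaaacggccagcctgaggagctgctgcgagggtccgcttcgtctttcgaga
STIP1: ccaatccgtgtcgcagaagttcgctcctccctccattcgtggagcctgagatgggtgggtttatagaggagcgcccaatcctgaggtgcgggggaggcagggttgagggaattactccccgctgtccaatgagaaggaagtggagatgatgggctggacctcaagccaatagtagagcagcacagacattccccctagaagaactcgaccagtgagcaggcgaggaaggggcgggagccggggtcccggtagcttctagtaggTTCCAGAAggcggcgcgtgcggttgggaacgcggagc
IER5: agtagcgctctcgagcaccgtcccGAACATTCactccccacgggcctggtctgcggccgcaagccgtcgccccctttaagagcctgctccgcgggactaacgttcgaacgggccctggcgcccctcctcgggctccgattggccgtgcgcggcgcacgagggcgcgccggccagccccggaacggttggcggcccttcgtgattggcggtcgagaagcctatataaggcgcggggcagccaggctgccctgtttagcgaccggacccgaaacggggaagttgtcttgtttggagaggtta
SERPINH1: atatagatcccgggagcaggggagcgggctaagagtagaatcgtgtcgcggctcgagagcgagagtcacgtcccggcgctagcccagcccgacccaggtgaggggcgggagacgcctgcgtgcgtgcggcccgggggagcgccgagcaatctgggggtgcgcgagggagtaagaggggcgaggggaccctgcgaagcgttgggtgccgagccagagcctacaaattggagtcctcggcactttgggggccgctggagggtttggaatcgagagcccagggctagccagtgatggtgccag

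The windows of HSPA1B, STIP1 and IER5 held 1 match each, and that of SERPINH1 held 0. The windows of SERPINH1 and STIP1 begin at 75562223 and 64185921. Their GENCODE genes begin upstream of this, at 75562056 and 64185272, so the windows do not cover those starts. The 0 of SERPINH1 thus applies only to its RefSeq window. Of the 21 lower calls, 20 had a RefSeq window and 4 of them (20%) held a match: HSPA1B, STIP1, IER5 and ZNF503-AS2. Over all 35116 windows of this length the share was 13.5%. Windows of other lower calls, among them ZNF503-AS2, PGAM1 and LIPE-AS1, also lay wholly downstream of the GENCODE gene start. The share among the lower calls therefore describes these windows and not every promoter of the genes. Of 15 heat shock genes, 10 held a match (66.7%). HSPA1B was at 816 and 851 CPM in the controls and 711 and 515 in the double knockdown, STIP1 at 773 and 698 against 583 and 536, and IER5 at 369 and 319 against 260 and 251. The double knockdown samples lay below both controls in these genes, as in SERPINH1. HSPA1A, a near-identical copy of HSPA1B, had at most 5 counts in any library, and reads shared by the copies cannot be assigned, so the value of HSPA1B is uncertain.

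Of the 5 higher calls, 2 were ordinary protein-coding genes. EEF1AKMT2, a lysine methyltransferase of the elongation factor eEF1A, had 8.05 and 12.7 CPM in the controls and 25.9 and 26.4 in the double knockdown, a change of 1.32 ± 0.27 (adjusted p = 0.00994, edgeR). NR6A1, the orphan receptor also called germ cell nuclear factor, had 24.2 and 24.1 CPM in the controls and 42.1 and 45.8 in the double knockdown, a change of 0.85 ± 0.20 (adjusted p = 0.0399, edgeR). In both genes the 4 single knockdown libraries also lay above both controls, with EEF1AKMT2 at 21.4 to 26.3 CPM and NR6A1 at 31.3 to 38.6. Single and double knockdowns share these controls, which held only 14 and 28 counts of EEF1AKMT2 and 42 and 53 of NR6A1. The other 3 higher calls were processed pseudogenes, RPL13AP25 (0.70), AL122020.1 (0.60) and AP001324.1 (0.59). Their reads can come from near-identical parent messages and are uncertain. Leaving out control replicate 1 gave adjusted p of 0.271 for EEF1AKMT2 and 0.356 for NR6A1. Leaving out control replicate 2 gave 0.606 for RPL13AP25 and 0.336 for AL122020.1, and leaving out RPRD1B_RPRD2_KD replicate 2 gave 0.453 for AP001324.1. Without the block no higher gene was called, all 5 having an adjusted p of 1.

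**Figure D2:**
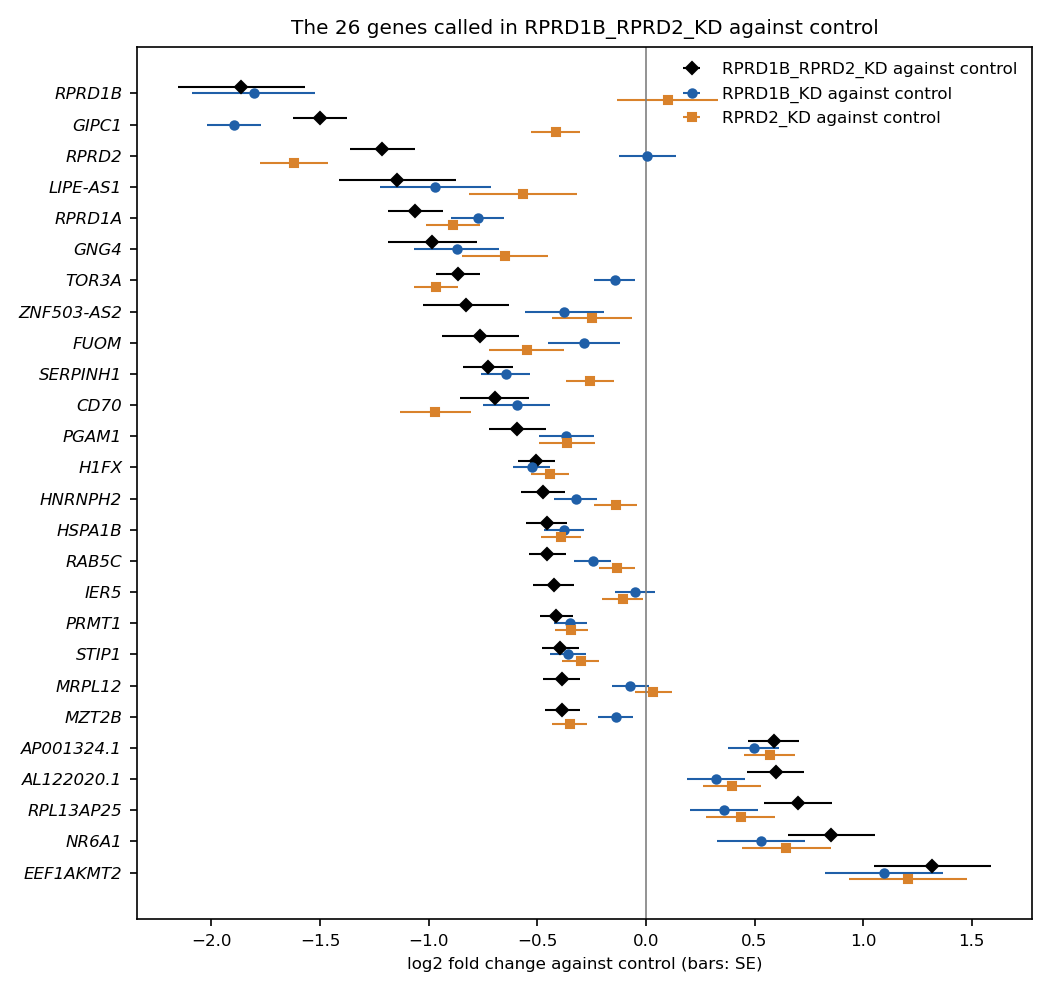
Log2 fold change against control (x axis; bars, SE) of the 26 genes called in RPRD1B_RPRD2_KD (diamonds), with the same genes in RPRD1B_KD (circles) and RPRD2_KD (squares); all 3 share the control samples. The diamonds run from -1.86 for RPRD1B to 1.32 for EEF1AKMT2. GIPC1 is lowest in RPRD1B_KD, and TOR3A and CD70 in RPRD2_KD.

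Base composition moved with these results. Median transcript GC content was 57.5% in the 21 lower calls, 49.9% in the higher ones and 48.7% over all genes tested. Across genes, the Spearman rank correlation of a library's deviation with GC content was 0.127 and 0.0789 in the controls and -0.0818 and -0.00702 in the double knockdown. With a GC correction 22 genes were called, 20 of them among the 26. The 6 that dropped out were FUOM (adjusted p = 0.113), ZNF503-AS2 (0.113), MRPL12 (0.15), MZT2B (0.16), CD70 (0.0845) and LIPE-AS1 (0.0534), by edgeR with the correction.

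Genes of transcription by RNA polymerase II other than the RPRD family showed no called change in the double knockdown. Only 0.227% of all genes tested were called in this comparison, so a list this short would mostly hold no call. Among 8 CTD-interaction domain proteins, RPRD1A, RPRD1B and RPRD2 were lower and the other 5 (PCF11, SCAF4, SCAF8, CHERP and U2SURP) did not pass. None of the 8 CTD phosphatases was called, nor of the 13 CTD kinases and cyclins, the 12 polymerase subunits, the 25 elongation factors, the 22 cleavage, polyadenylation and termination factors or the 14 Integrator subunits tested. Their median log2 fold changes were 0.01, 0.04, -0.10, -0.09, 0.02 and -0.14, against -0.01 over all genes. RPAP2, the phosphatase that RPRD proteins bind, had 42.0 and 23.6 CPM in the controls and 30.9 and 27.4 in the double knockdown, which overlapped, with a change of -0.16 ± 0.21 (adjusted p = 0.887, edgeR); it was chosen for its role. Among members named by size of change were CTDP1, the CTD phosphatase FCP1, at -0.53 ± 0.17 (adjusted p = 0.218, edgeR), NELFE, a subunit of the pausing factor NELF, at -0.55 ± 0.16 (adjusted p = 0.156, edgeR) and POLR2M at -0.66 ± 0.36 (adjusted p = 0.614, edgeR). POLR2M had only 6.11 to 14.1 CPM in the control and double knockdown libraries.

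The lists for pathways linked to RPRD1B were likewise without a call. With 0.227% of all genes called, an absence of calls says little about lists of this size, here and below. Of 9 Wnt targets tested the median was -0.04, of 29 cell cycle genes -0.02, of 14 p53 targets -0.04 and of 11 end joining and R-loop genes -0.06. CCND1, the cyclin D1 gene that RPRD1B is known for, also chosen for its role, had 62.7 and 57.2 CPM in the controls and 57.2 and 59.8 in the double knockdown, a change of -0.04 ± 0.16 (adjusted p = 0.98, edgeR). The p53 targets SESN1 and BTG2 were at 0.57 ± 0.26 (adjusted p = 0.485, edgeR) and 0.66 ± 0.45 (adjusted p = 0.718, edgeR). Genes that a transfection can alter were also not called: none of the 3 interferon response genes tested of 15 listed, none of 12 of the RNA interference machinery (median 0.12, AGO2 at 0.37 ± 0.13, adjusted p = 0.306, edgeR), none of 18 ATF4 stress response genes (median -0.10), none of 19 cholesterol synthesis genes (median 0.02) and none of 12 immediate early genes (median -0.16). Among 14 heat shock genes tested, HSPA1B was lower and the other 13 did not pass, with a median of -0.12.

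Set directly against RPRD1B_KD, with no control sample involved, the double knockdown showed what RPRD2 siRNA added. Only 3 genes were called, 0.0261% of those tested, all lower: RPRD2 (-1.22 ± 0.14, adjusted p = 2.45e-07), TOR3A (above) and SLC2A3, the neuronal-type glucose transporter GLUT3 (-1.33 ± 0.27, adjusted p = 0.0452), by edgeR. SLC2A3 was at 21.8 and 26.9 CPM in RPRD1B_KD, 6.83 and 12.95 in the double knockdown, 10.9 and 20.9 in the controls and 12.5 and 18.2 in RPRD2_KD. Its double knockdown samples lay below both RPRD1B_KD samples but overlapped the controls, and its adjusted p was 0.912 without RPRD1B_KD replicate 1. At an unadjusted p under 0.05 there were 751 genes, where 573.75 would be expected if no gene changed. Without the block edgeR called 0 genes, with 191 at an unadjusted p under 0.05, fewer than expected. DESeq2 with the block called 2. Without RPRD1B_RPRD2_KD replicate 2 there were 17 calls, without RPRD2_KD replicate 2 there were 5, and 2 without RPRD1B_KD replicate 1 and also without RPRD1B_KD replicate 2.

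Set against RPRD2_KD, the double knockdown showed what RPRD1B siRNA added. Here 60 genes were called, 0.523% of those tested, 50 higher (0.436%) and 10 lower. The largest falls were RPRD1B (-1.96 ± 0.28), GIPC1 and ABI2, a regulator of actin assembly. ABI2 was at 101 and 97.1 CPM in RPRD2_KD and 67.6 and 62.2 in the double knockdown, a change of -0.61 ± 0.14 (adjusted p = 0.015, edgeR; 0.259 without RPRD1B_RPRD2_KD replicate 1). SERPINH1 (-0.47, adjusted p = 0.0326) and MRPL12 (-0.42, adjusted p = 0.00413, edgeR) were lower here as well as against control. MRPL12 had 745 and 646 CPM in RPRD2_KD, 639 and 649 in RPRD1B_KD, 669 and 685 in the controls and 528 and 508 in the double knockdown. Both double knockdown samples of MRPL12 were the lowest of the 8 libraries. Without RPRD2_KD replicate 1 the adjusted p against RPRD2_KD was 0.614 for SERPINH1 and 0.441 for MRPL12.

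Among the 50 higher genes were GAPDH, the glycolytic enzyme, BAX, the mitochondrial pore former of apoptosis, AP1S1, a clathrin adaptor subunit, and LAMTOR2, a lysosomal scaffold of mTORC1, named after their values were seen. GAPDH had 1901 and 1610 CPM in RPRD2_KD and 2796 and 2093 in the double knockdown (0.47 ± 0.08, adjusted p = 2.13e-04, edgeR). BAX had 31.1 and 21.8 CPM against 57.2 and 45.8 (0.97 ± 0.18, adjusted p = 0.00168, edgeR). The samples of the double knockdown were the higher ones in both genes, without overlap. For AP1S1 the difference was 0.66 ± 0.10 and for LAMTOR2 0.60 ± 0.10 (adjusted p = 1.59e-04 and 7.07e-04, edgeR). Without RPRD1B_RPRD2_KD replicate 1 none of the 4 passed, with adjusted p of 0.084 for GAPDH, 0.148 for BAX, 0.0685 for AP1S1 and 0.189 for LAMTOR2. All 50 genes had an RPRD2_KD mean below the control mean, and 44 an RPRD1B_KD mean below it; since RPRD2_KD enters both, this is a description. The count of 60 fell to 5 without RPRD1B_RPRD2_KD replicate 1, to 18 and 23 without RPRD2_KD replicate 1 or 2, and to 29 and 28 without RPRD1B_KD replicate 1 or 2, and rose to 132 without RPRD1B_RPRD2_KD replicate 2. DESeq2 called 30, having given an adjusted p to only 797 genes. Without the block edgeR called 0, with 336 at an unadjusted p under 0.05 against 1124 with it. If no gene changed, 573.75 would be expected at that threshold.

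Small noncoding RNAs stood among the largest of these rises. SNORA79 and SNORA79B, guide RNAs of the box H/ACA type, rose by 1.64 ± 0.30 (adjusted p = 0.00123, edgeR) and 1.57 ± 0.25 (adjusted p = 1.87e-04, edgeR). SNORA79 was at 5.61 and 8.09 CPM in RPRD2_KD, 15.5 and 27.4 in the double knockdown, 12.1 and 29.1 in the controls and 20.3 and 37.5 in RPRD1B_KD. The Cajal body RNAs SCARNA13 (1.16) and SCARNA22 (0.85), the Y RNA RNY4 (0.92) and the U5 spliceosomal RNA RNU5F-1 (1.01) were higher too, and these 4 were picked after their values were seen. In each of the 6 RNAs the double knockdown overlapped the controls, and none was called against control. Against RPRD2_KD the samples of RNY4 and RNU5F-1 overlapped, and those of the other 4 did not. Without RPRD2_KD replicate 2 the adjusted p of SNORA79 was 0.212 and that of SCARNA22 0.331, without RPRD2_KD replicate 1 that of RNY4 was 0.273, and without RPRD1B_RPRD2_KD replicate 1 that of RNU5F-1 was 0.281. Over the 41 small RNAs of these classes that were tested, 6 were higher and 0 lower against RPRD2_KD in the edgeR fit, with a median of 0.26, where 0.436% of all genes were higher. In the same fit 7 of the 41 were lower in RPRD2_KD against control (median -0.44), as were 152 of all 11475 genes tested. In the double knockdown against control 0 of the 41 were called (median 0.07), where 0.227% of all genes were. At that share a count of 0 among 41 says little. RPRD2_KD enters both the count of 6 and the count of 7. Such RNAs mostly lack a poly(A) tail, repeat in near-identical copies and are poorly sampled by libraries of this type, so their values are uncertain. RNU5F-1, at 26.5 and 86.3 CPM in control replicates 1 and 2, was also higher in replicate 2 in every group. The same held for SNORA79, SNORA79B, SCARNA22 and RNY4, but not for SCARNA13. RPS14P8, a processed pseudogene of a ribosomal protein gene and likewise uncertain, rose by 1.18 (adjusted p = 0.0198, edgeR; 0.71 without RPRD1B_RPRD2_KD replicate 1).

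The interaction asked, gene by gene, whether the double knockdown departed from the sum of the single changes on the log2 scale. It was called for 133 genes, 1.16% of those tested, 127 of them positive (1.11%) and 6 negative. In all 127 positive genes both single knockdown means were below the control mean, and in 124 the double knockdown mean was above both single means. In 98 it was still below the control mean. Against control they had a median log2 change of -0.35 with RPRD1B siRNA, -0.47 with RPRD2 siRNA and -0.08 with both. The term was computed from these same means, so the pattern describes the genes the test picked and adds nothing to it. They were abundant genes, with a median of 184 CPM against 28.4 over all genes tested.

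GAPDH showed the pattern at high counts. It had 2763 and 2292 CPM in the controls, 1979 and 1847 in RPRD1B_KD, 1901 and 1610 in RPRD2_KD and 2796 and 2093 in the double knockdown, so that the single knockdowns lay below both controls and the double knockdown overlapped them. The interaction was 0.87 ± 0.11 (adjusted p = 1.14e-06, edgeR). For AP1S1 it was 1.03 ± 0.14 (adjusted p = 1.13e-05), with 310 and 295 CPM in the controls, 228 and 238 in RPRD1B_KD, 186 and 156 in RPRD2_KD and 293 and 245 in the double knockdown. LAMTOR2, at 257 and 262 CPM in the controls, 186 and 224 in RPRD1B_KD, 170 and 171 in RPRD2_KD and 265 and 247 in the double knockdown, had 0.93 ± 0.15 (adjusted p = 7.33e-05, edgeR). By the naming rule the largest positive terms were those of RPS14P8 (1.73), RNU5F-1 (1.71) and NAB1, a corepressor of EGR transcription factors (1.67 ± 0.37, adjusted p = 0.0057, edgeR). NAB1 had 20.7 and 24.1 CPM in the controls, 10.1 and 13.4 in RPRD1B_KD, 12.95 and 15.8 in RPRD2_KD and 22.7 and 25.4 in the double knockdown.

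Of the 249 distinct list members tested, 7 (2.81%) had a positive interaction, against 1.11% of all genes, and none had a negative one. Positive calls lay in abundant genes, and the share over all genes was not matched for abundance. The difference between these shares is therefore no evidence about the lists. The 7 genes came from 6 lists. They were the p53 target BAX (1.58 ± 0.25), the stress response genes ATF5 (1.07 ± 0.28) and SLC7A5, an amino acid transporter (0.76 ± 0.13), SYMPK, the scaffold of the 3′ end cleavage machinery (0.83 ± 0.15), the replication helicase subunit MCM5 (0.72 ± 0.16), the isoprenoid enzyme FDPS (0.66 ± 0.15) and the polymerase subunit POLR2E (0.61 ± 0.11), with adjusted p from 7.33e-05 for BAX to 0.0309 for ATF5 by edgeR. POLR2E had 1418 and 1118 CPM in the controls, 1057 and 940 in RPRD1B_KD, 1099 and 855 in RPRD2_KD and 1292 and 1067 in the double knockdown. BAX had 59.2 and 52.7 CPM in the controls, 40.1 and 33.0 in RPRD1B_KD, 31.1 and 21.8 in RPRD2_KD and 57.2 and 45.8 in the double knockdown. The median interaction of the lists these 7 genes belong to lay between -0.17 and 0.10, against -0.01 over all genes.

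Negative interactions were called for 6 genes, led by STK16, a Golgi-associated kinase (-1.30 ± 0.32, adjusted p = 0.0205), SALL1, a zinc finger factor of kidney development (-0.84 ± 0.22, adjusted p = 0.0309), and GPRC5C, an orphan receptor (-0.83 ± 0.21, adjusted p = 0.0293), all by edgeR. SALL1 had 49.4 and 49.95 CPM in the controls, 73.1 and 69.2 in RPRD1B_KD, 60.9 and 67.2 in RPRD2_KD and 54.3 and 47.3 in the double knockdown. STK16 had 18.97 and 14.99 CPM in the controls, 26.3 and 29.6 in RPRD1B_KD, 29.4 and 32.4 in RPRD2_KD and 18.3 and 23.9 in the double knockdown. In both genes the 4 single knockdown libraries were the highest. SALL1 passed in 0 of the 8 edgeR fits that left out 1 library, GPRC5C in 1 and STK16 in 2, with largest adjusted p of 0.312 (without RPRD1B_KD replicate 1), 0.359 (without RPRD1B_RPRD2_KD replicate 1) and 0.316 (without control replicate 2).

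**Figure D3:**
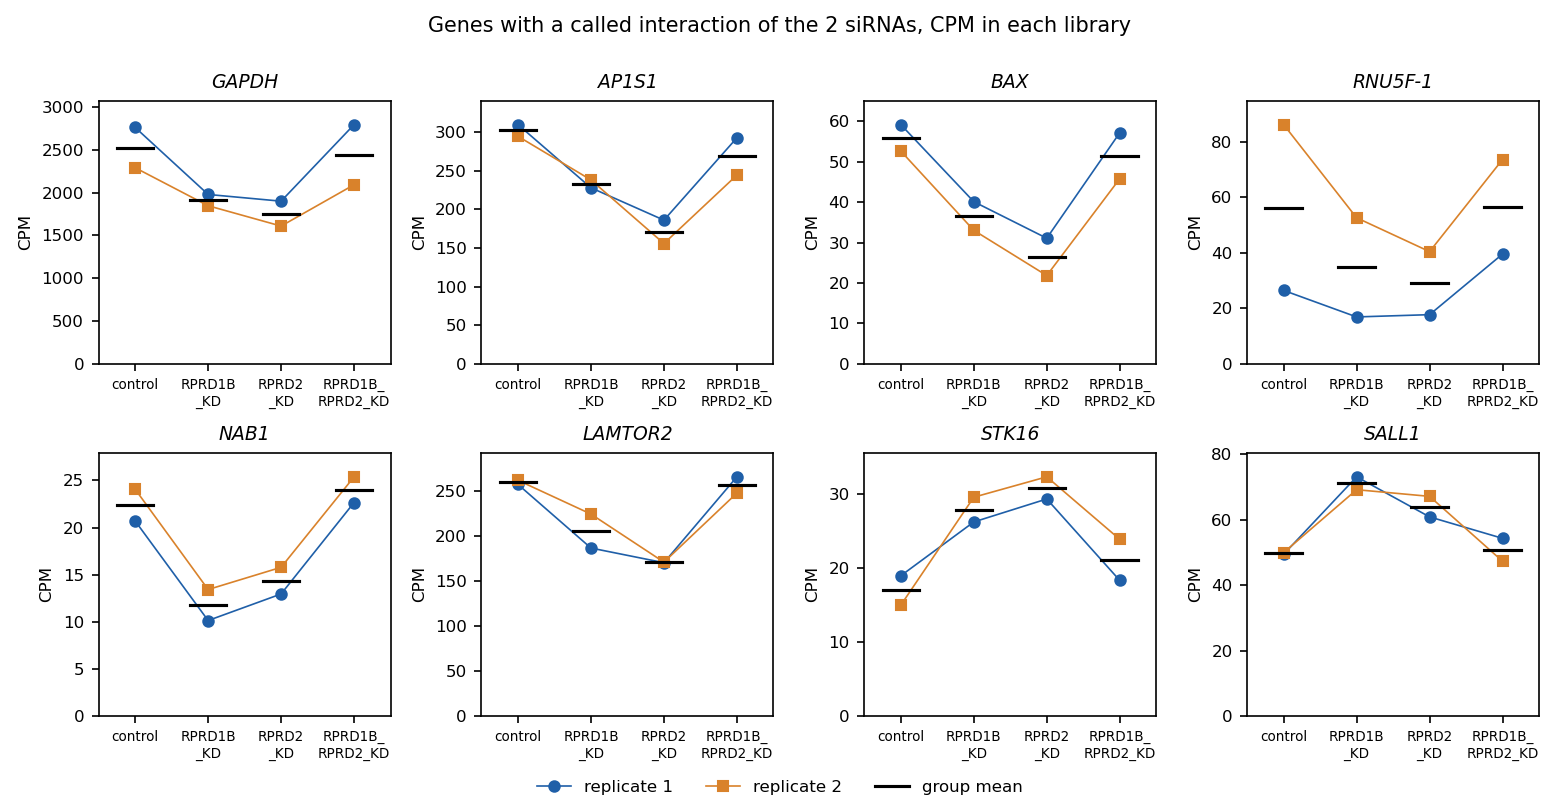
CPM of 8 genes with a called interaction in each library (y axis, from 0) by group (x axis); circles and squares are replicates 1 and 2, lines join libraries of the same number, and black bars are group means. In GAPDH, AP1S1, BAX, RNU5F-1, NAB1 and LAMTOR2 both single knockdown means dip below the control and double knockdown means, and in STK16 and SALL1 they rise above them.

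The interaction calls depended on the fit. Without the block edgeR called 0 genes, with 408 at an unadjusted p under 0.05 against 1239 with it. If no gene changed, 573.75 would be expected at that threshold. With all 16 HEK293T libraries edgeR also called 0, with 759 at that threshold, where 591.7 would be expected. It called 139 with 15 of them (without RPRD1A_RPRD2_KD replicate 2). Each gene named for its interaction had an adjusted p of 0.999 without the block. DESeq2 with the block called 72, of which 70 were among the 133; it gave an adjusted p to 2354 genes. The count was 4 without RPRD1B_KD replicate 1, 83 without RPRD1B_KD replicate 2, 86 and 63 without control replicate 1 or 2, 70 and 82 without RPRD2_KD replicate 1 or 2, 47 without RPRD1B_RPRD2_KD replicate 1 and 202 without RPRD1B_RPRD2_KD replicate 2. GAPDH, AP1S1 and BAX passed in all 8 of these fits, each with its largest adjusted p, 0.0247, without RPRD1B_KD replicate 1. LAMTOR2 reached 0.0604, SYMPK 0.0998, SLC7A5 0.118, POLR2E 0.146, MCM5 0.296, FDPS 0.204 and NAB1 0.156 without that library, RPS14P8 0.235 and RNU5F-1 0.0642 without control replicate 2, and ATF5 0.464 without RPRD1B_RPRD2_KD replicate 1. All 133 kept their direction in each of these fits. Median GC content of the 127 positive genes was 57.2% against 48.7% over all genes, and with the GC correction 132 genes were called, 118 positive, with 115 of the 133 among them; of the genes named above, ATF5 no longer passed (adjusted p = 0.064, edgeR).

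**Figure D4:**
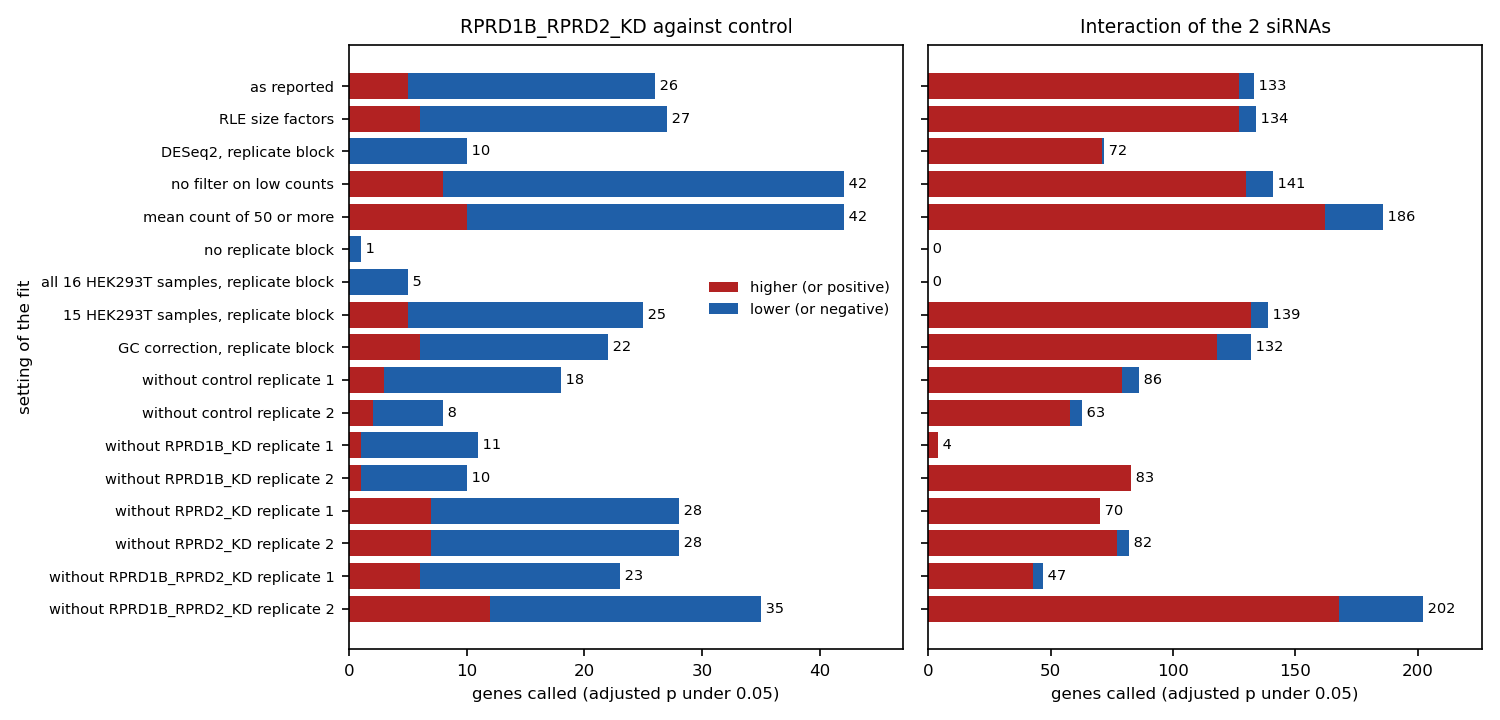
Number of genes called (x axis) under each setting of the fit (y axis), for the double knockdown against control (left) and for the interaction (right); red and blue parts are higher or positive and lower or negative calls. The counts run from 1 to 42 on the left and from 0 to 202 on the right.

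The effect of 1 siRNA on its own and on top of the other was also compared over the 5589 genes with a mean of 30 CPM or more, on the log2(CPM + 5) scale. Each axis used its own 4 libraries, so no sample was shared. The Spearman rank correlation across genes was -0.134 for RPRD2 siRNA, given without and with RPRD1B siRNA, and -0.0764 for RPRD1B siRNA, given without and with RPRD2 siRNA. By replicate number these were -0.154 and 0.0966 for RPRD2 siRNA and -0.049 and -0.00514 for RPRD1B siRNA. The changes against control of replicate pair 1 and pair 2, which also share no sample, gave 0.134 in the double knockdown, 0.297 in RPRD1B_KD and 0.298 in RPRD2_KD. These values are descriptions across genes, which are not independent, and libraries of the same number have a like share of reads outside features. GIPC1, TOR3A and RPRD2 lie far from the cloud in the plot of these effects, and the remaining genes show little relation between the axes.

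**Figure D5:**
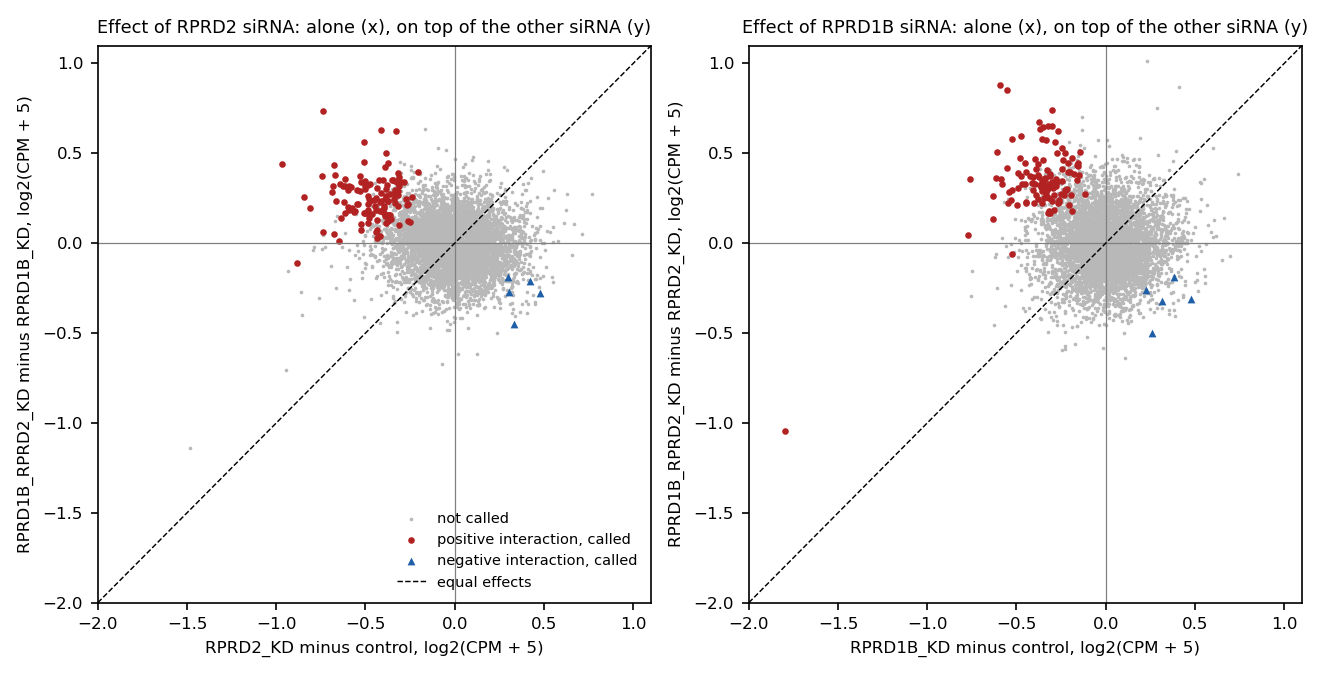
Log2(CPM + 5) difference made by 1 siRNA alone (x axis) and on top of the other siRNA (y axis) for RPRD2 siRNA (left) and RPRD1B siRNA (right), 1 point per gene with a mean of 30 CPM or more; red circles and blue triangles are positive and negative interaction calls, and the dashed line marks equal effects. The red points lie to the left of 0 and mostly above it, where the interaction places them.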

How the data were processed

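The deposited files hold raw counts as whole numbers, 1 table per sample, listed by gene name, with 58138 names and 5 closing rows for unassigned reads, which were left out; the share of reads outside features is given in the report. The submitters' processing notes name FastQC, STAR, HTSeq, DESeq2 and GRCh38, without versions or settings. Of the names, 54848 matched 1 GENCODE 29 gene (GRCh38), used for positions, types and transcript GC content. Groups came from titles and knockdown labels; the other 8 HEK293T samples entered only alternatives, and the 8 samples of the tetracycline-inducible line were not used here.

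All 8 libraries entered a single edgeR fit (version 4.0.16 under R 4.3.3, with limma 3.58.1): filterByExpr (minimum count 10, total 15), TMM, estimateDisp, glmQLFit and glmQLFTest, with 1 coefficient per group, the replicate number as a block and 3 residual degrees of freedom. A gene was called at a Benjamini-Hochberg adjusted p under 0.05 over all 11475 genes tested. SE was obtained by dividing the size of a log2 change by the root of its F statistic, and CPM uses TMM library sizes. The block is part of the comparison's rule, which pairs samples by the number in the titles; the labels do not say what a number shares. As a check, differences between replicates 1 and 2 correlated across 8821 genes between all groups (Pearson's r 0.328 to 0.524). The code was tested on simulated data.

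The comparisons, gene lists and members were chosen with earlier results of these data known. Genes were named by rule: RPRD1A, RPRD1B, RPRD2 and GIPC1; against control up to 12 rising and 12 falling calls of largest change without overlap and with a mean of 10 CPM or more; up to 3 in each direction in the other comparisons (no overlap condition for the interaction); and for each list its called members (up to 4) or the 2 of largest change. Alternatives were DESeq2 1.42.0, RLE scaling, no filter, a mean count of 50 or more, no block, all 16 or 15 HEK293T samples, only the 4 samples compared, a GC correction (lowess, span 0.3), calls limited to log2 changes of at least 1 in size, and fits without each sample in turn; an arm left with 1 sample was assumed to vary like the others. Promoters are RefSeq windows (GRCh38.p14). The siRNA sequences were not analysed here.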

Additional observations from a re-analysis of the deposited data

Results flagged for a closer look

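The interaction of both siRNAs was itself a test of a difference between effects, that of RPRD2 siRNA with and without RPRD1B siRNA, and it was called for 133 genes. Among named genes the log2 terms were 0.81 for GIPC1, 0.87 for CD70 and 0.46 for H1FX, which were also lower than control in the double knockdown. The terms of genes not called against control were 1.73 for RPS14P8, 1.71 for RNU5F-1, 1.67 for NAB1, 1.58 for BAX, 1.07 for ATF5, 1.03 for AP1S1, 0.93 for LAMTOR2, 0.87 for GAPDH, 0.83 for SYMPK, 0.76 for SLC7A5, 0.72 for MCM5, 0.66 for FDPS and 0.61 for POLR2E. The negative terms were -1.30 for STK16, -0.84 for SALL1 and -0.83 for GPRC5C. GIPC1, for example, stood at -1.90 against control with RPRD1B siRNA alone, at -0.42 with RPRD2 siRNA alone and at -1.50 with both. Its interaction passed in 3 of the 8 fits that left out 1 library, that of CD70 in 1 and that of H1FX in 4, with largest adjusted p of 0.237 (GIPC1) and 0.464 (CD70) without RPRD1B_RPRD2_KD replicate 1 and 0.584 (H1FX) without RPRD1B_KD replicate 1, by edgeR. With the GC correction the interactions of CD70 and H1FX did not pass (adjusted p = 0.0712 and 0.157, edgeR), and that of H1FX did not pass with DESeq2 (adjusted p = 0.396).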

How the results depend on the processing

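With RLE size factors and with 15 HEK293T samples all counts of calls stayed within 1.5 times. Against control the double knockdown had 10 calls with DESeq2, 42 without a filter and 42 at a mean count of 50 or more, 1 with no replicate block, 5 with all 16 samples, 15 and 1 with only the 4 compared samples with and without the block, and 6 at a log2 change of 1 or more. Against RPRD1B_KD it had 8 without a filter, 7 at a mean count of 50, 5 with the GC correction and 0 without the block; against RPRD2_KD 30 with DESeq2, 93 without a filter, 99 at a mean count of 50, 0 without the block, 2 with all 16 samples and 9 at a log2 change of 1. The interaction had 72 with DESeq2, 0 without the block, 0 with all 16 samples and 25 at a log2 change of 1. RPRD1B_KD against control had 32 with DESeq2, 114 at a mean count of 50, 1 without the block, 2 with all 16 samples and 6 at a log2 change of 1, and RPRD2_KD 73, 1, 2 and 12 for DESeq2, no block, 16 samples and a log2 change of 1. Leaving out 1 library gave 8 to 35 calls for the double knockdown against control, 2 to 17 against RPRD1B_KD, 5 to 132 against RPRD2_KD, 4 to 202 for the interaction, 1 to 114 for RPRD1B_KD and 28 to 217 for RPRD2_KD. The lowest counts came without control replicate 2 (double knockdown, RPRD2_KD), without RPRD1B_KD replicate 1 (interaction, RPRD1B_KD) or without RPRD1B_RPRD2_KD replicate 1 (against RPRD2_KD), and the highest without RPRD1B_RPRD2_KD replicate 2 in all 6 comparisons. Most calls in all 6 comparisons were lost without the replicate block. Most were also lost with the block kept and all 16 samples, except against RPRD1B_KD, where 2 calls remained. The causes were not tested. Genes near the floor of 1.04 to 1.64 CPM cannot show small changes at this depth.

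Among genes not called, the double knockdown's change against control reversed when 1 library was left out for UBLCP1 (-0.033 to 0.475), AFF1 (-0.364 to 1.106), RNF43 (-0.308 to 1.431), ISG15 (-0.604 to 0.098) and HSPA8 (-1.13 to 0.256), none of them called in any of the 8 fits; the cause was not tested. Over genes with a mean of 10 CPM or more the Spearman rank correlation moved to -0.0424 for RPRD1B siRNA and to -0.0852 for RPRD2 siRNA.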

Other observations

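Genes of the pathway lists with the largest changes against control in the double knockdown did not pass the test, and their values are given here without explanation. Among kinases and the RNA interference machinery, CDK9, the kinase of P-TEFb, had 4.02 and 4.09 CPM in the controls and 7.19 and 5.48 in the double knockdown (0.66 ± 0.51, adjusted p = 0.768, edgeR), and AGO4, an Argonaute, had 18.97 and 19.5 CPM against 32.0 and 26.4 (0.59 ± 0.23, adjusted p = 0.415, edgeR). CSTF2, the RNA-binding subunit of cleavage stimulation factor, had 15.5 and 30.9 CPM against 27.7 and 40.3 (0.53 ± 0.22, adjusted p = 0.432, edgeR), so its samples overlapped. INTS5, an Integrator subunit, had 171 and 148 CPM against 116 and 126 (-0.40 ± 0.12, adjusted p = 0.17, edgeR), without overlap. EBP, a sterol isomerase of cholesterol synthesis, had 111 and 112 CPM against 136 and 141 (0.30 ± 0.12, adjusted p = 0.427, edgeR), also without overlap. ASNS, the asparagine synthetase of the ATF4 response, was near the floor at 2.87 to 9.96 CPM in these 4 libraries (0.98 ± 0.53, adjusted p = 0.594, edgeR).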
